A study of Mus musculus with 483 samples.

Results

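The genes described here encode the proteins of the cytosolic ribosome. They were taken from the table of read counts by symbol, as names that start with Rpl or Rps and go on with a number, with the suffixes a, x or l allowed, together with Rplp0, Rplp1, Rplp2 and Rpsa. The rule found 83 members among 46078 genes, 32 with a name of the small subunit and 51 with a name of the large subunit. A member is called measured if its reads occurred in at least 5% of cells. That was so for 80 members and 15204 genes in all. The other 3 were Rpl10l with 8 reads, Rpl3l with 54 and Rpl39l with 70 over all cells. They are paralogs known from testis (Rpl10l and Rpl39l) and from striated muscle (Rpl3l). The rule also took Rps4l and Rpl6l, which the annotation lists as processed pseudogenes, and left out Rps3a1, Fau and Rack1, whose names follow another pattern.

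A ribosome joins a small subunit, which reads the messenger RNA, to a large subunit, which forms the peptide bond and holds the exit tunnel. Each protein is needed in about the same amount, and growing cells spend a large part of their transcription on ribosomes. Many messenger RNAs of ribosomal proteins begin with a run of pyrimidines, the terminal oligopyrimidine (TOP) element, through which growth signals set their translation. In blood formation, loss of a copy of a single ribosomal protein gene, such as RPS19, is a cause of the human disease Diamond-Blackfan anemia.

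The material was mouse cells sorted as positive for CD31, an endothelial surface protein, and Kit, the stem cell factor receptor, and negative for CD45, a pan-leukocyte protein. They came from the aorta with the gonads and mesonephros around it (AGM), the embryonic site where blood stem cells form, and each was read as 1 Smart-seq2 library of amplified full-length cDNA. The labels give the treatments Ctrl and aDll4-treated, with similar cell numbers, and do not explain aDll4. They give no strain, genotype, age or dose. The title of the series names the ligand Dll4 of Notch signalling, the entry of hemogenic cells into clusters in the aorta, and stem cell output as its topics. No label names an embryo or culture, so each treatment counts as 1 sample. No difference below was tested, and intervals cover the counting error of reads only. The submitters gave each cell 1 of 7 cluster numbers by ICGS, a method that groups cells by guide genes found in the data. The numbers were made from these same cells, so that differences between clusters are descriptions.

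By their library numbers the cells form 2 blocks and 6 runs of 96 numbers. From run 1 to run 6 the number of Ctrl cells was 46, 46, 44, 40, 37 and 26, and that of treated cells was 46, 46, 39, 47, 30 and 36. Block 1 consists of runs 1 to 4. The runs serve here to show spread and are not known to be dates or plates. Reads per cell ranged from 123097 to 2870618. The label calls all cells hematopoietic stem cells, but in clusters 1 to 3 (395 cells) the endothelial genes Pecam1 and Cdh5 stood at 579.7 to 1135 and 275 to 385 CPM (reads scaled to a common total per group). Ptprc, which encodes CD45, was at 0.889 CPM or less in each cluster. In clusters 6 and 7 (53 cells) the summed level of 8 blood markers was 1768 CPM, against 42.02 CPM in clusters 1 to 3. In clusters 4 and 5 (35 cells) the 5 mesenchymal markers summed to 4166 CPM. By reads of Xist and of Y-linked genes, no treated cell of block 1 was Xist-positive, and in block 2 61 treated cells were Xist-positive and 0 Y-positive, whereas Ctrl cells of both kinds occurred in both blocks.

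Promoter sequences of 61 members were found in RefSeq for build GRCm38.p6. They were searched for a TOP-like element, a run of at least 10 pyrimidines that overlaps the stretch from 10 bases before to 19 bases after the annotated start, on the transcribed strand alone. Such a run was present for 24 members (39.3%) and for 9.68% of 26964 other genes. It was present for 5 of 14 translation factors and other TOP messages, for 1 of 22 ribosome biogenesis genes and for 8 of 69 mitochondrial ribosomal proteins. The letters TATAAA, searched from 50 to 11 bases before the start on the same strand, were found in 0 members and in 2.67% of the other genes. A match describes the letters and shows neither a working element nor its use in these cells.

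Windows of 70 bases, 40 before the start and 30 from it onward, are printed for 6 members to which the comparisons below return, with the longest pyrimidine run near the start in capitals. Rpl4, at chr9:64173347-64173416 on the plus strand, was the member with the most reads. Rpl11, at chr4:136053364-136053433 on the minus strand, and Rpl36al, at chr12:69184038-69184107 on the minus strand, had the highest ratios over all cells in cluster 3 and in clusters 6 and 7, respectively. Rps10, at chr17:27635215-27635284 on the minus strand, and Rpl22, at chr4:152324396-152324465 on the plus strand, kept to opposite sides of the members' median treatment ratio in both blocks. Rpl10, at chrX:74270776-74270845 on the plus strand, followed the others least.
Rpl4: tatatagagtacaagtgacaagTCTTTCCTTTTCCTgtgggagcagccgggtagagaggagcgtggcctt
Rpl11: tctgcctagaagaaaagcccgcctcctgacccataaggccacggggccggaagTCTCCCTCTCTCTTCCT
Rpl36al: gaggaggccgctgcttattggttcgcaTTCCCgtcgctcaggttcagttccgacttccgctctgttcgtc
Rps10: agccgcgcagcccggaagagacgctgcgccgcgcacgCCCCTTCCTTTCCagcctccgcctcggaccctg
Rpl22: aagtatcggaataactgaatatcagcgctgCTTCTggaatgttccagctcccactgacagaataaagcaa
Rpl10: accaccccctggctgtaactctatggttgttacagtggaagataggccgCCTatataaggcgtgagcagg
The runs held 14 bases in Rpl4, 17 in Rpl11 and 13 in Rps10, and 5, 5 and 3 bases in Rpl36al, Rpl22 and Rpl10. The longest run of any member had 21 bases.

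Members held 8052632 of 442547544 gene-assigned reads. Per kb of transcript, among the highest counted levels were those of Rpl8 (1949.5 CPM per kb), next to the peptidyl transferase centre, and Rpl4 (1786), which lines the exit tunnel. Rps14 (1001 CPM per kb) and Rplp0 (934), the base of the stalk that recruits translation factors, followed. The stalk proteins Rplp1 and Rplp2 stood at 711 and 167.7 CPM per kb. The lowest measured members were Rpl24 (3.93 CPM per kb), Rpl6l (4.84), Rps25 (4.96), Rpl35 (5.42) and Rpl28 (7.21). The 5 members with the most reads held 52.2% of all member reads, and the lowest 40 measured members held 6.48%.

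The levels went along with shared sequence. Ribosomal protein genes have left many processed pseudogenes in the genome, and a read that matches several places may not be counted. For each member, the coding sequence was cut into 50-base windows and the percent of windows found exactly in a transcript of another gene was taken. It was 8.73% for Rpl8 and 20.3% for Rpl4, and 100% for Rpl24. The 12 members with less than 50% shared windows had a median of 557 CPM per kb and held 55.9% of member reads, against a median of 51.8 CPM per kb for the 59 members with at least 80%. Across the 80 members, Spearman's rho between level per kb and shared windows was -0.72, a description over members of the same libraries. The 810 pseudogenes that share a window with a member held 3021871 counted reads, and 28 measured members had fewer reads than one of their pseudogenes. For Rpl23, 58106 reads were counted, and 161969 for its pseudogene Gm9794, an example chosen after the values were seen. Levels of members with shared windows are therefore uncertain, and the comparisons that follow set the same member side by side between groups of cells. In those the median over members was close with few and with many shared windows, for treated over Ctrl 0.12 and 0.14 (log2), and for clusters 6 and 7 over 1 to 3 0.68 and 0.74.

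**Figure D1:**
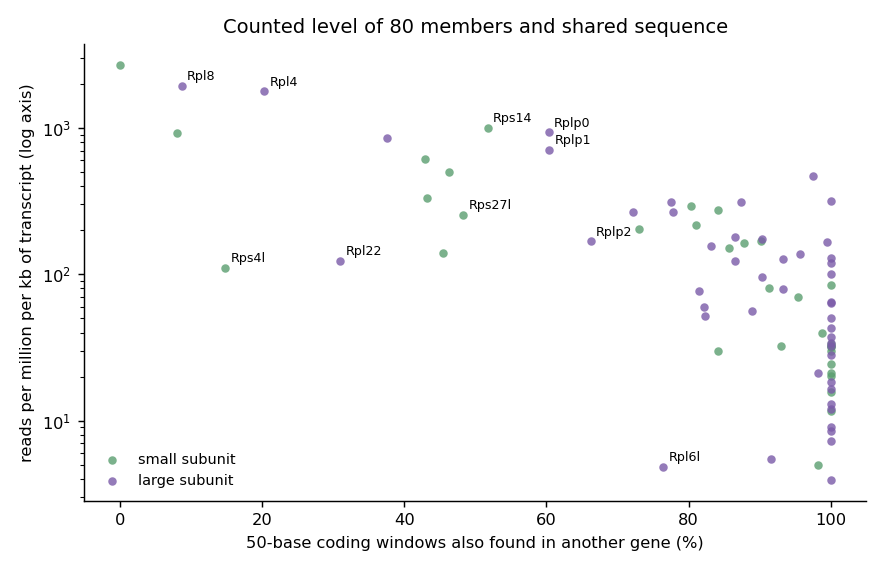
CPM per kb of transcript over all cells (log axis) against the percent of 50-base coding windows also found in another gene, for the 80 measured members, 1 point each, small subunit in green and large subunit in purple. Rpl8 and Rpl4 stand at the top left, and the members with 100% shared windows reach down to 3.93 CPM per kb.

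The share of a cell's reads that fell in members differed between clusters. The median share was 1.46% in cluster 1 (97 Ctrl and 86 treated cells), 1.75% in cluster 2 (73 and 72 cells) and 2.24% in cluster 3 (67 cells). It was 2.11% in cluster 4 (22 cells), 1.51% in cluster 5 (13 cells), 2.86% in cluster 6 (33 cells) and 2.38% in cluster 7 (20 cells). The order of medians, from low to high, was cluster 1, 5, 2, 4, 3, 7 and 6. Single cells ranged from 0.144% to 5.64%, and the middle 50% of cells ran from 1.19 to 1.67% in cluster 1, from 1.85 to 2.75% in cluster 3 and from 2.57 to 3.20% in cluster 6. Cells of neighbouring clusters in that order overlapped, while clusters 1 and 6 did not overlap in these middle ranges. Of 10 cells above 4%, 6 were in cluster 3 and 4 in clusters 6 and 7. Of the 53 cells of clusters 6 and 7, 2 lay below the median of clusters 1 to 3. In summed reads, members took 2.746% (95% exact binomial interval 2.742 to 2.751) in clusters 6 and 7 and 1.673% (1.672 to 1.675) in clusters 1 to 3, and the difference was above 0 in 6 of 6 runs.

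**Figure D2:**
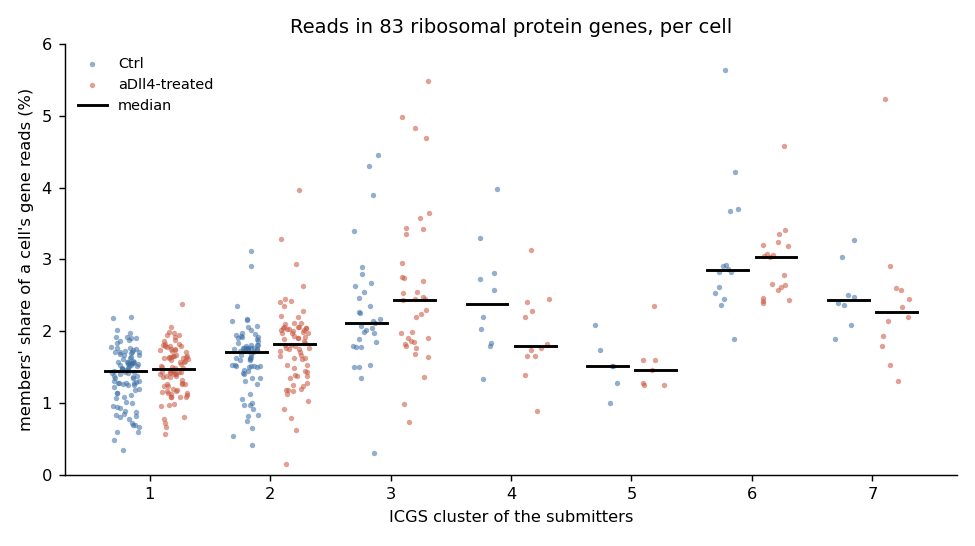
Percent of a cell's gene-assigned reads that fell in the 83 members, for each of the 7 clusters, 1 point per cell, Ctrl in blue and aDll4-treated in red, with a black line at the median. Cluster 6 stands highest and clusters 1 and 5 lowest, and the treatments overlap in each cluster.

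In clusters 6 and 7, where the blood markers were high, all 80 measured members were above their level in clusters 1 to 3. The median log2 ratio was 0.73, with members from 0.15 to 1.33, against -0.02 for all genes measured, of which 49.1% were above 0. A log2 ratio of 1 or more was reached by 8 of 80 members, and by 11.6% of all genes measured. With both treatments together the members' part in large differences was thus near the background, while their median was not. In Ctrl cells alone 19 of 80 members reached 1, a larger part than the 13.7% of all genes. In treated cells alone it was 6 of 80, a smaller part than the 11.9% of all genes. Taken singly, cluster 6 had a members' median of 0.86 and cluster 7 one of 0.49. Small and large subunit members had medians of 0.72 and 0.74. The ratio was above 0 for 79 members in both treatments, with a median of 0.88 in Ctrl and 0.59 in treated cells.

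Rpl36al, the autosomal paralog of the X-linked Rpl36a, lay highest when all cells were taken. It ranged over 0 to 387 CPM per cell with a median of 52.1 in clusters 1 to 3, and over 5.81 to 437 CPM per cell with a median of 123.5 in clusters 6 and 7. The ranges overlap, and the summed levels were 56.7 and 144.4 CPM (log2 ratio 1.33, and 1.53 and 1.17 within Ctrl and treated cells). In treated cells alone the highest ratio of any member was 1.35, so Rpl36al was not the highest there. Rpl36a itself went from 16.2 to 28.03 CPM (log2 ratio 0.76). Rpl27, a large subunit protein, had a log2 ratio of 1.23, Rpl23a, at the mouth of the exit tunnel, one of 1.17, and Rps23, at the decoding centre, one of 1.15. Among the lowest were Rpl10 (0.15), which completes the large subunit late in its assembly, and Rpl24 (0.19), part of a bridge between the subunits. Rpl24 had few reads, with a median of 0.86 CPM per cell in clusters 1 to 3 and 1.88 in clusters 6 and 7. These levels are close to the 1 CPM added before the log2 ratio, so the low ratio of Rpl24 is uncertain. Without its highest cell Rpl24 was at 0.26. Rpl22, an RNA-binding protein needed for T cell development, was also low with 0.37. All 3 stalk proteins were near or above the median, Rplp0 at 0.87, Rplp1 at 0.99 and Rplp2 at 0.73. Without its highest cell Rpl10 was at 0.031. The anemia gene Rps19 had a log2 ratio of 0.63 and Rpsa, which also serves as a laminin receptor, 0.80.

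Cluster 3 kept the endothelial markers at 3353 CPM summed over 6 genes, against 4185 CPM in clusters 1 and 2. Members took 2.33% of summed reads against 1.56% in clusters 1 and 2, with a difference above 0 in 6 of 6 runs. The median log2 ratio over members was 0.66 against 0.0097 for all genes. Above 0 were 79 of 80 members and 50.8% of all genes, and 5 members reached 1 or more, as did 6.27% of all genes. The 8 blood markers summed to 166.2 CPM in cluster 3 and 21.2 CPM in clusters 1 and 2. The 5 mesenchymal markers summed to 236.4 CPM against 13.02 CPM, and the 4 epithelial markers to 48.5 CPM against 8.69 CPM. Cells of cluster 3 had the fewest genes with a read, with a median of 5937 against 7588, and fewer reads, 669599 against 878153. The part of marker content and of gene number in the difference was not tested.

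Rpl11 had the highest ratio of all members in cluster 3 when all cells were taken, while Rps4l was above it in treated cells alone (1.77) and in block 2 alone (1.73). Together with Rpl5 and 5S ribosomal RNA it can bind Mdm2, the ubiquitin ligase that degrades p53. Rpl11 ranged over 0 to 182.5 CPM per cell with a median of 11.2 in clusters 1 and 2, and over 0 to 339 CPM per cell with a median of 27.2 in cluster 3. The summed levels were 18.7 and 59.5 CPM, a log2 ratio of 1.62, with 1.72 in Ctrl, 1.53 in treated cells, 1.93 in block 1 and 1.33 in block 2. Without the cell that had the most Rpl11 it was 1.51. Rpl5, its partner, went from 22.2 to 40.1 CPM (log2 ratio 0.83). All coding windows of Rpl11 and of Rpl5 are shared with other genes.

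Rps4l, which the annotation calls a transcribed pseudogene, had a log2 ratio of 1.37 in cluster 3 and 1.08 without its highest cell, which held 4.59% of all its reads. Rps4x, the gene it resembles, had a log2 ratio of 0.71. Rps27l, a paralog of Rps27 that p53 can induce, had a log2 ratio of 1.11, while Rps27 had 0.57. Rpl30 had 1.01. At the other end, Rpl10 was at 50.2 CPM in clusters 1 and 2 and 47.4 CPM in cluster 3 (log2 ratio -0.081), with 0.32 in Ctrl and -0.50 in treated cells. The log2 ratio of Rps2, at the messenger RNA entry, was 0.051, Rps16 had 0.25, and Rpl28 had 0.12 and -0.038 without its highest cell. Rplp0 (0.37), Rpl3 (0.41) and Rpsa (0.47) also lay below the median, and Rps19 (0.85) above it. The comparisons of cluster 3 and of clusters 6 and 7 share clusters 1 and 2 as the reference.

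**Figure D3:**
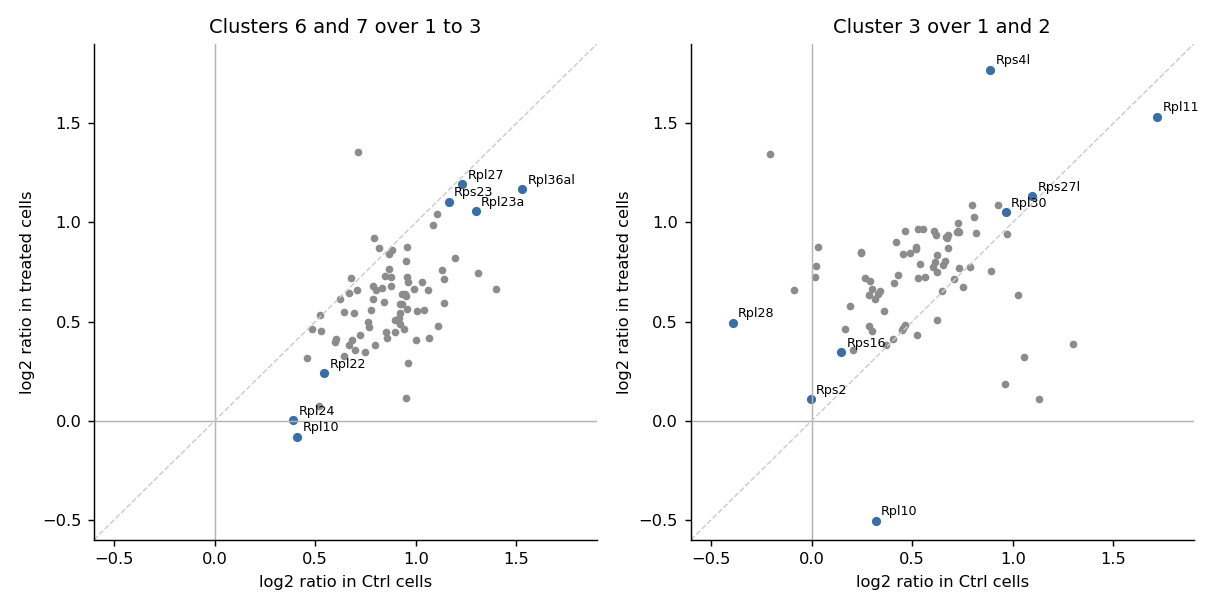
Log2 ratio of each of the 80 measured members in treated cells (vertical axis) against Ctrl cells (horizontal axis), for clusters 6 and 7 over 1 to 3 on the left and cluster 3 over 1 and 2 on the right, with named members in blue and a dashed line of equality. Rpl36al lies highest on the left in Ctrl cells, Rpl11 is above 1.5 in both treatments on the right, and Rpl10 is lowest on the right in treated cells.

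**Figure D4:**
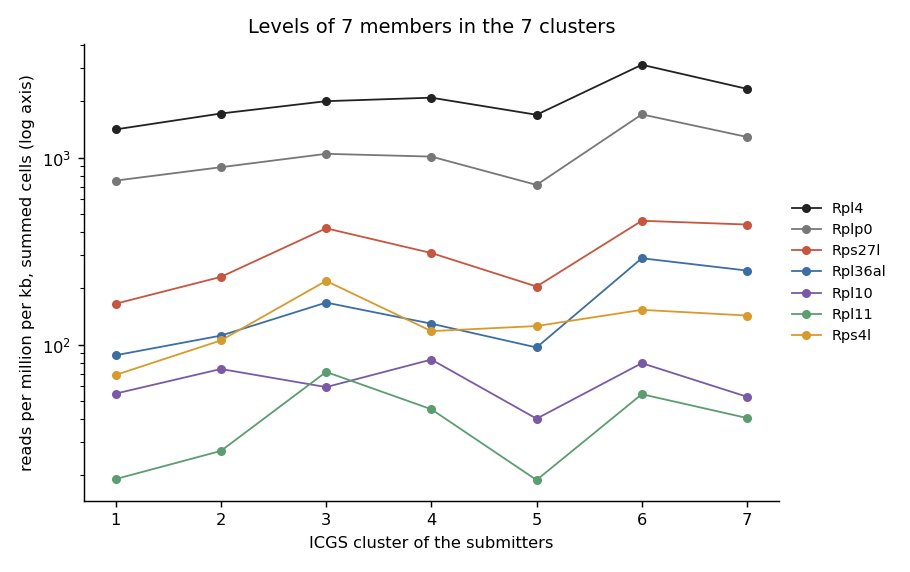
CPM per kb of transcript in summed cells of each cluster (log axis) for 7 members, 1 line each. Rpl11 and Rps4l peak in cluster 3, Rpl36al and Rplp0 in cluster 6, and Rpl10 is the only one of the 7 that is lower in cluster 3 than in cluster 2.

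In clusters 4 and 5, where mesenchymal markers were high, members took 1.86% of summed reads, 0.185 percentage points above clusters 1 to 3. The difference was 0.426 points in Ctrl cells and -0.0280 points in treated cells, so its direction was not held. Taken singly, cluster 4 had a members' median of 0.34, with 78 of 80 above 0, and cluster 5 one of -0.16, with 60 below 0. Over all genes measured the medians were 0.065 in cluster 4 and -0.055 in cluster 5, with 53.5% and 46.7% of genes above 0. The 4 epithelial markers summed to 423 CPM in clusters 4 and 5 and 14.4 CPM in clusters 1 to 3, and the part of marker content was not tested. With both clusters together, no member reached a log2 ratio of 1 either way (0 of 80, against 24.3% of all genes). Members furthest above were Rpl15 (0.80), Rpl12 (0.80), at the base of the stalk, Rps29 (0.77) and Rpl21 (0.64). Furthest below were Rpl5 (-0.23) and Rps2 (-0.17), which had the same sign in both treatments. Rpl35a (-0.14) and Rps20 (-0.12) were below 0 in treated cells and above 0 in Ctrl cells. Without the single cell with the most reads, Rpl12 and Rps29 came to 0.56 and 0.54.

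Members took a slightly larger share of reads in aDll4-treated than in Ctrl cells. The cell median was 1.68% in Ctrl (cells from 0.299 to 5.64%) and 1.77% in treated cells (0.144 to 5.48%), and the 2 groups overlapped almost entirely. In summed reads the shares were 1.753% (1.751 to 1.755) and 1.888% (1.886 to 1.890), a difference of 0.135 percentage points. By run the difference was 0.267, 0.0931, 0.0873, 0.0810, 0.0262 and 0.0792 points, above 0 in all 6 runs with run 1 well above the rest. With both treatments weighted to the same cluster mix it was 0.0704 points. Treated cells held more cells of clusters 6 and 7 (31 against 22), and all 8 blood markers and 0 of 6 endothelial markers had a higher level in them. The blood markers summed to 197.6 CPM in Ctrl (runs from 56.98 to 358) and 311 CPM in treated cells (187.2 to 501). Of the 5 markers of hematopoietic stem cells, 1 was higher in treated cells, and their sum went from 402 CPM (Ctrl) to 354 CPM (treated). Of the 5 mesenchymal markers 3 were higher in treated cells, and their sum went from 329 CPM (runs from 5.98 to 798) to 422 CPM (16.9 to 915). Acta2 went from 116.6 CPM in Ctrl to 266.1 CPM in treated cells, while Col1a1 and Col1a2 were lower in treated cells. The part of these markers in the difference was not tested. Median mitochondrial shares were 8.25% and 7.93%.

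The sign of the difference was not the same in all clusters. In summed reads of clusters 1 to 3 the share was 1.61% in Ctrl and 1.75% in treated cells. In clusters 6 and 7 it was 2.83% and 2.70%, and in clusters 4 and 5 2.03% and 1.72%. The largest step among clusters 1 to 3 was that of cluster 3, from 2.14% to 2.54%. Within block 1 of cluster 3 the shares were 2.24% and 2.32%, and within block 2 2.07% and 2.72%. Whether these differences between clusters exceed the spread between embryos was not tested.

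Member by member, the treatment differences were small and mostly of 1 sign. The median log2 ratio of treated over Ctrl was 0.13, against 0.012 over all genes. Above 0 were 76 of 80 members and 52.2% of all genes measured. Of the members, 63 were above 0 in both blocks and 9 in all 6 runs, counts that were not made for all genes. A log2 ratio of 0.5 or more was reached by 0 members in either direction, whereas 12.3% of all genes passed it. The members' median was above that of all genes in 5 of 6 runs. It was 0.16 in clusters 1 to 3 and -0.092 in clusters 6 and 7, where 58 members were below 0. Small and large subunit members had medians of 0.14 and 0.13. Rpl8 ranged from 188.4 to 4219 CPM per Ctrl cell with a median of 1508, and from 22.3 to 5385 per treated cell with a median of 1649 (log2 ratio of sums 0.12). The other large contributors were close to it, with 0.10 for Rpl4, 0.15 for Rps14 and 0.088 for Rplp0.

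Members on the same side of that median in both blocks and in at least 5 of 6 runs numbered 12. The same count was not made for all genes measured, so the number is no sign of consistency. Agreement over blocks and runs was the rule that picked these members, so their values by block and run do not support them. Among the 12, Rpl36, a large subunit protein, lay furthest above that median. It had a median of 4.60 CPM per Ctrl cell (0 to 35.8) and 6.92 per treated cell (0 to 53.4). Its summed level was 6.77 CPM (6.44 to 7.12) in Ctrl and 9.43 CPM (9.03 to 9.85) in treated cells. The log2 ratio was 0.42, and above 0 in 6 of 6 runs, from 0.13 to 0.64. The log2 ratio of Rpl17, at the exit tunnel, was 0.36, with 0.40 in block 1 and 0.27 in block 2. Rps10 (0.25) and Rpl18 (0.24) were also above it, and human RPS10 is an anemia gene too. Rpl18 was below 0 in run 5 (-0.0018) and Rps10 in run 4 (-0.28). The single highest ratio was that of Rps28 (0.46), a member named here after its values were seen. Without its highest cell it was at 0.29.

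Below the median lay Rpl22, with 0 to 1371 CPM per Ctrl cell (median 235.5) and 13.9 to 822 per treated cell (median 239.4). Summed over cells it stood at 255 CPM (Ctrl) and 252 CPM (treated), which is a log2 ratio of -0.018. Its paralog Rpl22l1, which Rpl22 is known to hold down, had 0.0081. Rps4x (-0.013), Rpl39 (-0.011) and Rps24 (0.025) were also near 0, as was Rpl3 (0.039). With DESeq2 size factors Rps24 was at -0.0039, and the signs of Rpl22, Rps4x, Rpl39 and Rpl3 held with them and with edgeR's scaling. Without the highest cell of each, Rpl22 came to 0.0064, Rpl39 to 0.021, Rps4x to -0.0023 and Rps24 to 0.05, and the first 2 of these changed sign. Of the 4 members below 0, Rps4x and Rpl39 are X-linked and the others were Rpl22 and Rps29 (-0.0039).

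**Figure D5:**
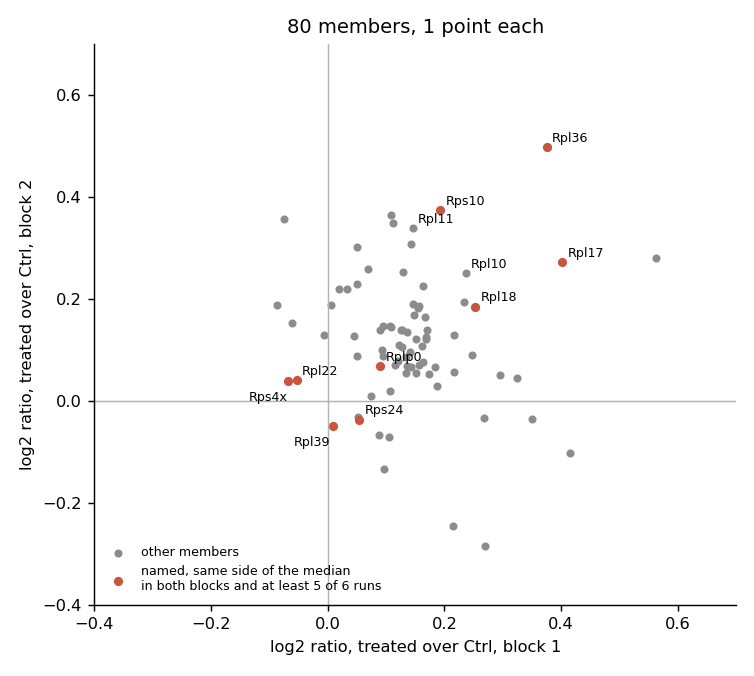
Log2 ratio of treated over Ctrl summed levels in block 2 (vertical axis) against block 1 (horizontal axis) for the 80 measured members, 1 point each, with the named members in red. Most points lie above 0 on both axes, Rpl36 and Rpl17 stand above 0.2 on both, and Rpl22, Rps4x, Rpl39 and Rps24 lie close to 0.

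Members followed each other from cell to cell, with 1 clear exception. For the 53 members with a read in at least 95% of cells, the rank correlation over all cells between a member and the sum of the others had a median of 0.71 and ran from 0.11 to 0.85. Within cluster 1 alone the median was 0.60. The points share libraries and the total by which each level is divided. The highest value was that of the stalk protein Rplp1 (0.85), and the lowest was that of Rpl10 (0.11), although Rpl10 had a read in 96.7% of cells. The next lowest were Rps13 (0.47) and Rpl5 (0.52).

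Rpl10 is X-linked, and in Ctrl cells its level was lower where Xist was read, in both blocks. In Ctrl cells of block 1 it was 39.5 CPM in the 85 Xist-positive cells and 49.2 CPM in the 77 cells with Y-linked reads (log2 ratio -0.31). In block 2 it was 39.6 and 68.9 CPM (log2 ratio -0.78). The other X-linked members did not hold a direction between blocks. Rpl36a had 0.026 and -0.62, Rps4x 0.053 and -0.20, and Rpl39 0.12 and -0.22. The treated cells of a block that could be sexed were of 1 sex. The treatment ratio of Rpl10 differed between sets of cells. Over all cells it was 0.25, among cells with Y-linked reads in block 1 0.046, and among Xist-positive cells in block 2 0.74. Rpl11, which is autosomal, also differed between these sets, with 0.22 over all cells. It had -0.21 among the cells with Y-linked reads in block 1 and 0.70 among the Xist-positive cells in block 2. Sex and embryo cannot be told apart here.

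The members' share was higher in block 2 than in block 1, and that rested mainly on run 6. The cell median of the members' share was 1.65% in block 1 (354 cells) and 1.98% in block 2 (63 Ctrl and 66 treated cells), and the summed difference was 0.234 points. In summed reads run 5 had 1.78% and run 6 2.29%, against 1.74% in block 1, and without run 6 the difference came to 0.0343 points. With all runs it was -0.00796 points within cluster 1 and 0.0403 points within cluster 2. Treated and Ctrl cells had 1.48% and 1.41% within cluster 1, and 1.79% and 1.69% within cluster 2. The cluster mix differed between blocks. Cluster 3 gave 33 of the 354 cells of block 1 and 34 of the smaller number in block 2. Median mitochondrial shares were 8.67% and 5.81%. Between blocks 4 members reached a log2 ratio of 0.5 upward, as did 11.1% of all genes. They were Rpl9 (0.83), Rps28 (0.75), Rps27a (0.59), which is made as a fusion with ubiquitin, and Rpl7 (0.52). Lower in block 2 were Rpl38 (-0.31), known for its role in axial skeleton patterning, Rps13 (-0.20), Rps16 (-0.18) and Rpl24 (-0.16), with the same sign in both treatments. Without the highest cell Rpl24 was at -0.087.

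Other genes of ribosome production were read from lists, whose values are log2 ratios on the same scale. Of the 5 ribosomal proteins outside the symbol rule, 4 were above 0 in treated cells, with Fau at 0.15, and all 5 were above 0 in clusters 6 and 7 (median 0.80). The 20 translation factors and other TOP messages had medians of 0.062 for treatment and 0.54 for clusters 6 and 7, with Eef1d at 0.31 and 1.04. Of 7 measured snoRNA host genes, 6 were above 0 in treated cells. That did not hold in both blocks, since 6 were above 0 in block 1 (median 0.22) and 3 in block 2 (median -0.034). Gas5, whose transcript carries its own TOP element, had 0.26 for treatment, 1.32 in cluster 3 and 1.35 in clusters 6 and 7.

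Ribosome biogenesis genes, which build ribosomes without being part of them, lay further above clusters 1 to 3 in clusters 6 and 7 than the members did. Of 26, 24 reached a log2 ratio of 1 in clusters 6 and 7 (median 1.48) and 3 in cluster 3 (median 0.69). Of all genes measured, 11.6% reached it in clusters 6 and 7 and 6.27% in cluster 3. The nucleolar helicase gene Ddx21 had 2.22 in clusters 6 and 7, and 0.71 for treatment. It was the only one of the list past 0.5 for treatment, where 12.3% of all genes passed it either way. For treatment the list's median was 0.24, with 0.39 in block 1 and -0.053 in block 2, whereas the members had 0.14 and 0.12. Among 13 regulators, Myc, which drives transcription of ribosome genes, had 2.51 in clusters 6 and 7 and 0.42 for treatment, and Mycn had -0.42 and 0.86. Mycn differed between blocks, at 1.16 and 0.072. Of the 6 measured chaperones and carriers of ribosomal proteins, 5 reached 1 in clusters 6 and 7, among them Heatr3 (1.69) and Bccip (1.09). Of 77 measured mitochondrial ribosomal proteins, 20 did, among them Mrps23 (2.18) and Mrps18b (1.46), with a list median of 0.73 that was close to that of the cytosolic members. Their median was 0.11 for treatment in block 1 and 0.00085 in block 2.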

How the data were processed

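Single cells were read with Smart-seq2 and Nextera XT libraries on an Illumina HiSeq, per the labels' protocols. The deposited table holds raw read counts per gene and cell. The authors used GSNAP (2015-09-29), HTSeq (0.6.0) and build mm10, per the submitters' processing notes, while annotation, strand setting and handling of multiply mapped reads were not given in the sources used here. All columns matched a sample by name (0 columns of no sample). From the counts, reads were summed over the cells of a group and divided by the total in Python 3.11.15 (numpy 2.4.6, pandas 2.3.3, scipy 1.17.1, matplotlib 3.10.9). Log2 ratios used CPM plus 1. Intervals are 95% exact Clopper-Pearson intervals and cover the counting error of reads only. They treat each read as independent. Reads carry no molecular identifiers, so copies made by amplification are not told apart and the intervals do not cover the counting error of molecules. With 1 sample per treatment no test was made, and a member or gene past a log2 ratio of 0.5 (treatment and blocks) or 1 (clusters) is given as a description. The scaling factors of edgeR 4.0.16 and DESeq2 1.42.0 (R 4.3.3) served as alternatives. A cell was taken as Xist-positive or Y-positive from at least 10 reads of 1 kind. Symbols, biotypes, lengths and coding windows come from GENCODE M21 and promoters from RefSeq. The calculation of log2 ratios and counts was tested on simulated data.

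Members named with values were the 5 with the most and the 5 with the fewest reads per kb and those not measured. For treatment they were the 5 furthest on each side of the members' median that kept that side in both blocks and in at least 5 of 6 runs. For each cluster and block comparison they were the 4 furthest on each side that kept it in both treatments. Further named were a fixed set of stalk proteins, paralogs and disease genes and, from each list of other genes, the 2 with the largest treatment difference. Members, lists and this rule were chosen with earlier results of these data known. Some members and list genes that this rule would name are not reported here.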

Additional observations from a re-analysis of the deposited data

Results flagged for a closer look

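Among the 6 runs of library numbers, the members' share was 0.267 percentage points higher in treated than in Ctrl cells in run 1, further from the other runs than their spread allows by Dixon's criterion, and above 0 in each of the others. The share of run 6, with both treatments together, was 2.29% and stood above the shares of the other 5 runs. Cluster 3 made up 19 of the 62 cells of run 6. Run 6 also had the highest summed share of any run within groups of clusters. Within clusters 1 and 2 it had 1.791%, and the next highest, run 4, had 1.597%. Within cluster 3 it had 2.719%, and the next highest, run 4, had 2.555%. Within clusters 6 and 7 it had 3.37%, and the next highest, run 2, had 2.956%. The part of the cluster mix in the share of run 6 was not tested. Rpl23a, at the mouth of the exit tunnel, had a log2 ratio of treated over Ctrl of -0.43 in run 6, apart from the other runs. The criterion was applied to every named measured member and to the shares and cluster differences by run. Chance alone sets about 1 in 20 such groups apart, so a single member set apart among so many may be chance.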

How the results depend on the processing

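The members' higher share in treated cells kept its direction under all alternatives run, at 0.0704 to 0.181 points, and at 0.0982 to 0.159 points without each run in turn. The median log2 ratio stayed between 0.10 and 0.18. The number of members past 0.5 went from 0 to 1 with a pseudocount of 0.1 CPM, with cells thinned to 120000 reads, in block 1 alone, in Y-positive cells of block 1 and without run 1, 2 or 5, and to 5 in Xist-positive cells of block 2. Without 1 run in turn it was 0 to 1. Clusters 4 and 5 stood 0.426 points above clusters 1 to 3 in Ctrl cells alone and at -0.0280 points in treated cells alone. Block 2 against block 1 came to -0.00796 points in cluster 1 alone and to 0.0343 points without run 6. The cause was not tested. The differences of clusters 6 and 7 (0.949 to 1.22 points) and of cluster 3 (0.622 to 0.927 points) kept their direction. Of the settings for named members, 1032 stayed within the spread between runs and 18 moved past it. This count does not record a change of sign, and most settings reuse most of the cells, so it is no measure of stability. Of 22 settings, the main one included, Rps29 was below 0 in 17, Rps4x in 16, Rpl22 in 14 and Rpl39 in 13. Leaving out pseudogene-annotated members, adding counted pseudogene reads, leaving out extreme cells and the block difference without run 6 were chosen after seeing the data. No paired analysis was possible because the numbers in the titles count cells and each treatment is 1 sample with no test. Few reads limit the lowest members, and embryo-to-embryo spread is not known.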
